A study of Homo sapiens with 6 samples.

Results

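The 10 genes described here are 3 telomerase genes (TERT, TERC and DKC1), 2 genes whose loss marks the ALT pathway (ATRX and DAXX) and 5 shelterin genes (TERF1, TERF2, POT1, TINF2 and ACD). They were chosen by name, with earlier results of these data known, and all 10 were found among the 57820 genes of the deposited tables. RNA-seq compared 3 WT with 3 ARID1A-KO samples of AID-DIvA cells, numbered 3, 4 and 5 in each genotype. AID-DIvA cells derive from the osteosarcoma line U2OS, and in both genotypes they hold an AsiSI nuclease that can be switched on and then removed through an auxin-inducible degron. The cells were untreated, so the nuclease was not induced. ARID1A, a large subunit of the SWI/SNF (BAF) chromatin remodeler, was knocked out with Cas9 and a pair of guides, and knockout clones were grown. The clone that was sequenced is not stated, so ARID1A loss and any other difference between the clone and its parent cannot be told apart. The labels number the replicates without naming separate cultures, and p-values measure the spread between these samples.

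Telomeres are repeats of TTAGGG that cap chromosome ends. Telomerase extends them by copying the RNA template in TERC with the reverse transcriptase TERT, and DKC1 (dyskerin) holds TERC in a stable particle. Cells without telomerase can keep their telomeres by recombination, which is called alternative lengthening of telomeres (ALT), and U2OS is a standard ALT line. ATRX and DAXX together place histone H3.3 at telomeres, and ALT tumours often have lost one of them. Shelterin is the protein complex that covers the repeats and hides them from DNA repair. TERF1 (TRF1) and TERF2 (TRF2) bind the double-stranded repeats, POT1 binds the single-stranded end, TINF2 (TIN2) bridges them, and ACD (TPP1) ties POT1 to TINF2. TERF2IP (RAP1) binds TERF2 and completes the complex, and it was followed beside the 10 genes.

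In ARID1A-KO cells, 4 of the 5 shelterin genes were higher than in WT cells, namely ACD, TERF2, TINF2 and POT1, whereas TERF1 did not pass the test. ATRX was lower, and DAXX and DKC1 did not pass the test. TERT had at most 3 counts in any sample and TERC had none. Of the 8 genes with enough counts to be tested, 5 were thus differentially expressed, where 36.2% of all 19599 genes tested were. The choice of genes was not blind to these data. ACD and TERF2 lie 1.70 Mb apart on chromosome 16, among neighbours that were mostly higher too. Genes were called where the quasi-likelihood test of edgeR gave an adjusted p under 0.05, which 17.8% of all genes tested passed as higher and 18.4% as lower. Levels are given as CPM, counts scaled to a common library total and normalized by TMM. Both genotypes had separate CPM ranges for 6 of the 8 genes, 4 of them higher and 2 lower in ARID1A-KO, against 49.5% of all genes tested, 24.8% in each direction. A count from bulk RNA cannot tell apart fewer cells with a transcript and less of it per cell.

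**Figure D1:**
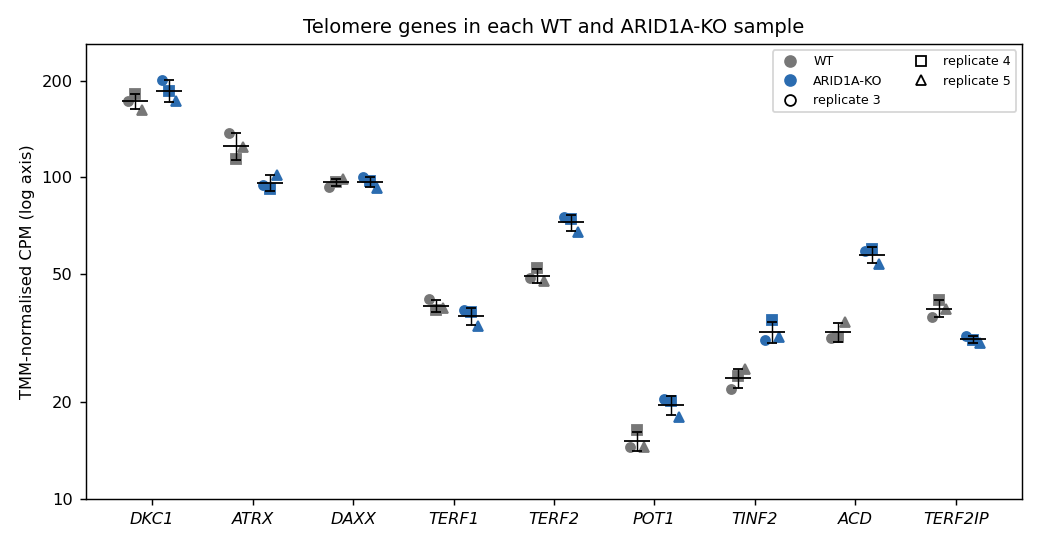
TMM-normalised CPM on a log axis of the 8 tested genes and TERF2IP in each sample, with WT in grey, ARID1A-KO in blue and a marker for each replicate; bars give the mean and SD (n = 3). ACD, TERF2, TINF2 and POT1 lie higher and ATRX and TERF2IP lower in every ARID1A-KO sample, while DKC1 and DAXX overlap.

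Total reverse-stranded counts ran from 54512105 to 84088708 per sample. ARID1A had 166 to 178 CPM in WT and 25.1 to 27.5 CPM in ARID1A-KO samples, so that it changed by -2.74 on the log2 scale (SE 0.07, adjusted p = 9.66e-08 in edgeR). The labelled osteosarcoma type was checked with 9 osteoblast lineage genes. Their TPM summed to 953 to 1022 in WT and 543 to 594 in ARID1A-KO samples, most of it from SPARC and COL1A1. SP7, BGLAP, IBSP and COL1A2 stayed under 1 TPM in every sample. TPM are counts scaled by transcript length. Of that list, ALPL, SPP1, SPARC and COL1A1 were lower in ARID1A-KO cells. Markers of other cell types were low, with sums of at most 13.3 TPM for 4 epithelial, 1.36 TPM for 4 haematopoietic and 1.18 TPM for 2 endothelial genes. The epithelial sums ran from 9.60 to 13.3 TPM in WT and 12.6 to 13.2 TPM in ARID1A-KO samples, and the haematopoietic ones from 0.797 to 1.36 TPM and 0.253 to 0.504 TPM. The 6 proliferation genes summed to 2884 to 3295 TPM in WT and 2716 to 3211 TPM in ARID1A-KO samples, and MCM2, at -0.47 on the log2 scale, was the only one of them called. The part of these lists in the results below was not tested.

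TERC was not detected in these libraries. It had 0 counts in all 6 samples, which allows up to 0.0357 to 0.0550 CPM per sample (3 counts of the total, counting error only). The gene lies at chr3:169482308-169482848 on the minus strand of GRCh37, and no other gene of the tables overlaps it. Its template is shown because it is the sequence that telomerase copies into TTAGGG repeats. The 51 bases at chr3:169482773-169482823 (GRCh37, minus strand, 5′ to 3′, written as DNA) hold the 11-base template in capitals, at bases 46 to 56 of the transcript.
TERC: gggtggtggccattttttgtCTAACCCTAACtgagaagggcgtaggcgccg

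TERC ends without a poly(A) tail, and the labels give polyA RNA although the kit is one for total RNA. Other RNAs without a tail, chosen after their values were seen, ranged widely. RMRP had 5 to 13 counts per sample, RPPH1 1 to 11 and RN7SK, one of the most abundant nuclear RNAs, 36 to 61, whereas RN7SL1, the RNA of the signal recognition particle, had 456 to 1221. The 54 rows for small Cajal body RNAs summed to 426 to 782 counts per sample. Of 406 rows for H/ACA box snoRNAs, the class that TERC shares its 3′ domain with, 27 had at least 10 counts in every sample. The limit above is on the CPM in these libraries, and how much TERC the cells held was not measured.

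TERT, the catalytic subunit, lies at chr5:1253262-1295184 on the minus strand. It had 0, 1 and 0 reverse-stranded counts in WT replicates 3, 4 and 5 and 1, 0 and 3 counts in ARID1A-KO replicates 3, 4 and 5. In all, that is 1 of 199206896 counts in WT and 4 of 207041346 counts in ARID1A-KO samples, a ratio of 3.85 with a 95% interval from 0.381 to 189.5 (exact binomial, counting error only). A difference was not detectable at this depth. The opposite strand of the gene held 1 count in WT and 3 counts in ARID1A-KO samples, about as many as the sense strand.

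DKC1, the pseudouridine synthase of the telomerase particle and of H/ACA snoRNPs, was the most abundant of the 10 genes per length, with a mean TPM of 181 ± 11.2 in the WT and 198 ± 11.0 in the knockout samples (SD, n = 3). Its CPM were 173, 181 and 162 in WT replicates 3, 4 and 5 and 201, 185 and 172 in the ARID1A-KO ones. The genotypes overlapped, and the log2 fold change was 0.11 (95% interval -0.054 to 0.28, adjusted p = 0.266, edgeR's quasi-likelihood test). A pair of H/ACA snoRNAs inside DKC1, SNORA36A and SNORA56, had 0 or 1 count per sample.

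ATRX was lower in ARID1A-KO cells. This SWI/SNF-family helicase lies at chrX:76760356-77041702, and U2OS cells are known to lack its full-length protein. A count per gene does not tell full-length from shortened transcripts. The CPM were 138, 114 and 124 in WT and 94.6, 91.9 and 102 in ARID1A-KO replicates 3, 4 and 5. Every ARID1A-KO sample lay below every WT sample, and WT replicate 4 came closest to ARID1A-KO replicate 5. ATRX changed by -0.38 on the log2 scale (SE 0.08, adjusted p = 0.00486, edgeR's quasi-likelihood test). For its 40 tested neighbours within 5 Mb the median was -0.095, and with that taken off the change was -0.29 (adjusted p = 0.0217, edgeR's quasi-likelihood test).

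DAXX, the H3.3 chaperone that works with ATRX, had the smallest log2 fold change of the 8 genes. It measured 93.6, 96.9 and 98.9 CPM in WT and 100.1, 97.8 and 92.9 CPM in ARID1A-KO replicates 3, 4 and 5. Its genotypes overlapped, and the log2 fold change was 0.0072, with a 95% interval from -0.12 to 0.14 (adjusted p = 0.939, edgeR's quasi-likelihood test). The ratio of ATRX to DAXX TPM was 0.390 ± 0.045 in the WT and 0.298 ± 0.027 in the knockout samples (SD, n = 3).

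ACD rose most among the members. It recruits telomerase and ties POT1 to the complex, and it lies at chr16:67691415-67694713 on the minus strand. The CPM were 31.6, 31.8 and 35.5 in WT and 59.0, 59.8 and 53.8 in ARID1A-KO replicates 3, 4 and 5. The lowest ARID1A-KO sample stood well above the highest WT sample. It rose by 0.80 on the log2 scale (SE 0.07, adjusted p = 5.13e-05, edgeR's quasi-likelihood test), which is 1.75-fold. Its 3′ end overlaps that of RLTPR on the other strand by 58 bp. RLTPR went from 8.90 ± 0.997 to 29.4 ± 4.44 CPM (SD, n = 3), a log2 fold change of 1.72 (adjusted p = 1.79e-05, edgeR's quasi-likelihood test). Counting by strand keeps the reads apart, and ACD was called with unstranded counts too.

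TERF2, which protects chromosome ends from fusion, lies 1.70 Mb from ACD, at chr16:69389464-69442474 on the minus strand. The CPM were 48.7, 52.3 and 47.5 in WT and 75.3, 74.3 and 67.7 in ARID1A-KO replicates 3, 4 and 5, without overlap. TERF2 rose by 0.55 on the log2 scale (SE 0.07, adjusted p = 0.000288, edgeR's quasi-likelihood test). TERF1, its paralogue with a like DNA-binding domain, had 41.7, 38.6 and 39.2 CPM in WT and 38.6, 38.1 and 34.4 CPM in ARID1A-KO samples. Its genotypes only just did not overlap, and the log2 fold change was -0.11 (95% interval -0.26 to 0.052, adjusted p = 0.27, edgeR's quasi-likelihood test). The ratio of TERF2 to TERF1 TPM was 1.83, 2.13 and 1.91 in WT and 3.07, 3.06 and 3.09 in ARID1A-KO samples. The tables also list 5 TERF1 pseudogenes, with at most 7 counts together in a sample.

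TINF2, the bridge of the complex, lies at chr14:24708849-24711880 on the minus strand. It had 22, 24.0 and 25.3 CPM in WT and 31.3, 35.9 and 32.0 CPM in ARID1A-KO replicates 3, 4 and 5, without overlap. TINF2 rose by 0.47 on the log2 scale (SE 0.08, adjusted p = 0.00205, edgeR's quasi-likelihood test). Counts on the opposite strand were 4.69% to 6.53% of its own in WT and 2.72% to 5.23% in ARID1A-KO samples. For the other tested members they stayed at or under 2.84%, a value that ACD had in ARID1A-KO replicate 3, where TINF2 had the 2.72%.

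POT1, which covers the single-stranded overhang, lies at chr7:124462440-124570037 on the minus strand. It was the least abundant tested member, with 842 to 1583 counts per sample. The CPM were 14.5, 16.3 and 14.5 in WT and 20.4, 20.2 and 18.0 in ARID1A-KO replicates 3, 4 and 5, again without overlap. POT1 rose by 0.37 on the log2 scale (SE 0.09, adjusted p = 0.00991, edgeR's quasi-likelihood test). RP11-3B12.1, a noncoding gene that starts inside POT1 on the other strand, went the other way, from 0.409 ± 0.118 to 0.101 ± 0.09 CPM (SD, n = 3; log2 fold change -1.87, adjusted p = 0.0161, edgeR's quasi-likelihood test).

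TERF2IP fell while its partner TERF2 rose. It had 36.8, 41.6 and 38.9 CPM in WT and 32.1, 31.3 and 30.6 CPM in ARID1A-KO replicates 3, 4 and 5, without overlap. TERF2IP changed by -0.32 on the log2 scale (SE 0.07, adjusted p = 0.00596, edgeR's quasi-likelihood test). The ratio of TERF2 to TERF2IP TPM was 0.762 ± 0.031 in the WT and 1.39 ± 0.053 in the knockout samples (SD, n = 3).

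**Figure D2:**
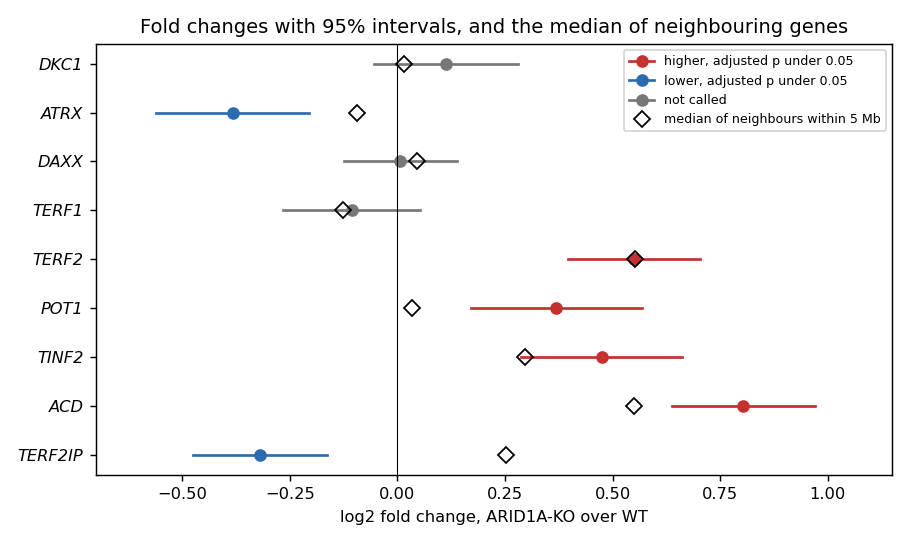
Log2 fold change of ARID1A-KO over WT for the 8 tested genes and TERF2IP, as points with 95% intervals, red where higher, blue where lower and grey where not called; open diamonds give the median of the other tested genes within 5 Mb. The diamond of TERF2 lies on its point, those of ACD and TINF2 are shifted the same way as the gene, and those of POT1 and ATRX lie near 0.

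The genes around the shelterin loci moved as well. Within 5 Mb, 146 other tested genes around TERF2 had a median log2 fold change of 0.55, 138 around ACD one of 0.55 and 127 around TINF2 one of 0.30, whereas 51 around POT1 had 0.034. With these medians taken off, TERF2 was at -0.0023 (adjusted p = 0.984) and TINF2 at 0.18 (adjusted p = 0.131, edgeR's quasi-likelihood test), and neither was called. ACD kept 0.25 (adjusted p = 0.0267) and POT1 0.34 (adjusted p = 0.018, edgeR's quasi-likelihood test). Thus 3 of the 8 genes were still called, ACD, POT1 and ATRX, where 6281 of all 19599 genes tested were called. The median was entered as a fixed value in every fit of this kind. Their adjusted p-values therefore hold the spread between samples and not the spread among the neighbours.

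The shift on chromosome 16 had an edge between TERF2 and TERF2IP, which start 6.29 Mb apart. Genes with a mean over 2 CPM were counted by distance, with TERF2, ACD and TERF2IP included in their own stretches. From the TERF2 start to 2.5 Mb beyond, 29 of 29 were above 0, with a median log2 fold change of 0.58. So were 11 of 11 from there to 5 Mb, with a median of 0.81. In the latter stretch, ZFHX3 (0.016), which starts 3.43 Mb from TERF2, was not called. Nor were PSMD7 (0.067), AC009120.6 (0.057) and RP11-252A24.2 (0.17), which start 4.94 to 4.98 Mb from TERF2. From 5 to 7.5 Mb, where TERF2IP lies, 7 of 18 were above 0 and the median was -0.071. The edge was not sharp. In this stretch GLG1 (0.21), RFWD3 (0.35), MLKL (0.57) and TMEM231 (0.29) were called as higher. CFDP1 (-0.38), GABARAPL2 (-0.42), ADAT1 (-0.24) and TERF2IP were called as lower. On the other side, toward ACD, 50 of 54 genes within 2.5 Mb were above 0, with a median of 0.52. Of the 103 other genes within 5 Mb of TERF2, 48 had a larger log2 fold change than TERF2 and 21 a larger one than ACD, with ACD itself among the 103. Genes that start close to ACD varied, with CTCF at 0.20, ENKD1 at 0.96 and RLTPR at 1.72. The 66 tested neighbours of TERF2IP within 5 Mb, a window that spans this edge, had a median of 0.25, and with it taken off TERF2IP was at -0.57 (adjusted p = 0.000329, edgeR's quasi-likelihood test). Within 1 Mb, a window chosen after seeing the data, 19 genes had a median of -0.088, and TERF2IP was then at -0.23 (adjusted p = 0.0291, edgeR's quasi-likelihood test).

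**Figure D3:**
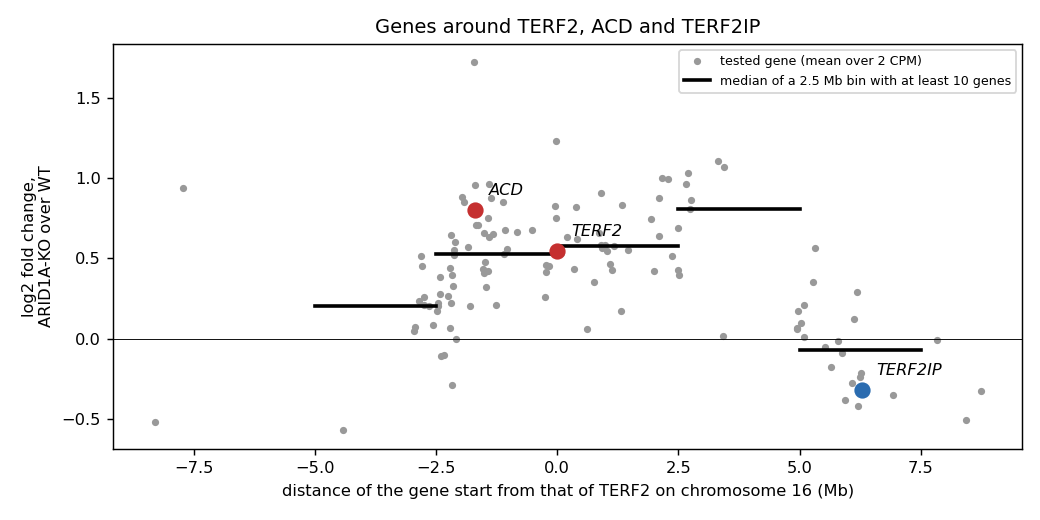
Log2 fold change of tested genes with a mean over 2 CPM against the distance of their start from that of TERF2 in Mb; black lines are medians of bins of 2.5 Mb with at least 10 genes. ACD and TERF2 sit among genes that were higher in ARID1A-KO cells, and TERF2IP beyond 5 Mb, where the median is -0.071.

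Levels were compared between genes in TPM. In WT cells the order was DKC1, DAXX (116 ± 1.32), TERF2IP (50.9 ± 2.72), ATRX (45.1 ± 4.85), ACD (45.0 ± 2.45), TERF2 (38.7 ± 2.04), TINF2 (38.5 ± 2.03), TERF1 (19.8 ± 1.14) and POT1 (11.3 ± 0.773 TPM, SD, n = 3 each). TERF2IP and ATRX, ATRX and ACD, and TERF2 and TINF2 had overlapping ranges, and the other neighbours in this order did not. In ARID1A-KO cells ACD moved up to the third place at 79.4 ± 2.75 TPM, ahead of TERF2 (57.3 ± 1.89) and TINF2 (54.2 ± 4.06), which overlapped. TERF2IP (41.2 ± 0.364) and ATRX (35.0 ± 2.72) stood below them, followed by TERF1 (18.6 ± 0.70) and POT1 (14.7 ± 0.662 TPM, SD, n = 3 each).

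The TPM of the 6 shelterin genes summed to 199.96 to 208 in WT and 259 to 274 in ARID1A-KO samples, and its make-up differed. The share of ACD was 22 ± 1.28% in the WT and 29.9 ± 0.343% in the knockout samples (SD, n = 3). That of TERF2 was 19.0 ± 0.916% and 21.6 ± 0.467%. TERF2IP held 24.9 ± 0.891% in WT and 15.5 ± 0.563% in ARID1A-KO cells, and TERF1 9.73 ± 0.747% and 7.02 ± 0.168%. For these 4 genes the shares of the genotypes did not overlap, whereas those of TINF2 and POT1 did. A share depends on the other genes in the sum, and TERF1, whose share was smaller, was not called in the test above. POT1, the smallest share, was 5.51 ± 0.317% in WT and 5.54 ± 0.164% in ARID1A-KO cells.

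**Figure D4:**
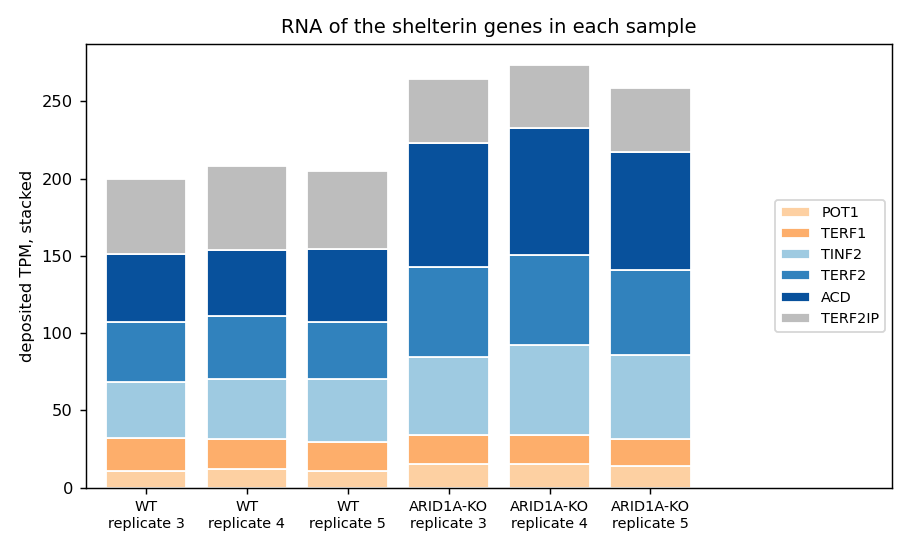
Deposited TPM of the 6 shelterin genes, stacked from 0, for each of the 6 samples. The stacks reach 199.96 to 208 in WT and 259 to 274 in ARID1A-KO samples, with a wider ACD band and a narrower TERF2IP band in ARID1A-KO.

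The promoters of shelterin genes that changed are shown so that their sequences can be compared. They run from 250 bases before to 50 after the RefSeq start (GRCh38.p14, 5′ to 3′ on the strand of the gene). Of 9 genes looked up, 5 matched, POT1, TINF2, ACD, TERF2IP and DKC1. Capitals mark matches on either strand to the GC box GGGCGG, the E-box CACGTG, the CCAAT box CCAAT, the ETS motif CCGGAAG, the NRF1 motif or the telomeric repeat TTAGGG. The positions are chr7:124929776-124930075 for POT1, chr14:24242625-24242924 for TINF2 and chr16:67660211-67660510 for ACD, all on the minus strand, and chr16:75647523-75647822 on the plus strand for TERF2IP.
POT1: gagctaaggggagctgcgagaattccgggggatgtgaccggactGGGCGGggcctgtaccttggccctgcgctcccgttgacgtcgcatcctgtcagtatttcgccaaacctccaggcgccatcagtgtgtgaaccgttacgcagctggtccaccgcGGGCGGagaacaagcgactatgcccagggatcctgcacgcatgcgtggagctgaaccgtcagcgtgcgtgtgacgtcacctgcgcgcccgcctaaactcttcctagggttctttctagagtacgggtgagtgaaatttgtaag
TINF2: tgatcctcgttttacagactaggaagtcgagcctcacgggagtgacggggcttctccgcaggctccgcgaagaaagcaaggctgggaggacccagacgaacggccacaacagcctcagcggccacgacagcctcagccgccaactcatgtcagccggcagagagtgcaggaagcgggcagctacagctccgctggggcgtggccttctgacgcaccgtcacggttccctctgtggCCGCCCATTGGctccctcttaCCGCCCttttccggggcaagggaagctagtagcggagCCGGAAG
ACD: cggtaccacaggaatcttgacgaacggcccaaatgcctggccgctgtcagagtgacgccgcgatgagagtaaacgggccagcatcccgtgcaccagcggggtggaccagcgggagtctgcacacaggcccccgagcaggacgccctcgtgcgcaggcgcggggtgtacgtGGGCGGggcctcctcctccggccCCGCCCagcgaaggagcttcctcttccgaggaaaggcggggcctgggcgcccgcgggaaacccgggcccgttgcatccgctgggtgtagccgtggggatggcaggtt
TERF2IP: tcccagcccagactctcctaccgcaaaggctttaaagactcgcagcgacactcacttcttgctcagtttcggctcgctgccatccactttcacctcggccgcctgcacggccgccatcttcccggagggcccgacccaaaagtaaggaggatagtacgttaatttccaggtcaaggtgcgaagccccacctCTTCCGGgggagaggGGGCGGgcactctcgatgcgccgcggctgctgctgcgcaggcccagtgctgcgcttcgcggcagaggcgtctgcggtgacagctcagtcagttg

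Each of these 4 promoters held the GC box, with 2 matches in POT1, TINF2 and ACD and 1 in TERF2IP, and it occurs in 45.0% of 35116 promoters of this length. TINF2 also held a CCAAT box (34.6% of promoters), directly beside a GC box without overlap. The ETS motif (10.3%) was in TINF2 and TERF2IP. None of the 4 held the E-box (7.26%), the NRF1 motif (1.24%) or the telomeric repeat (9.05%) in this window, and DKC1 held the NRF1 motif.

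In the wider telomere lists, 53 of 54 genes were tested, and 10 were higher and 7 lower in ARID1A-KO cells, together 32.1% against 36.2% of all genes tested. The median log2 fold change was 0.074 over the 53 genes and 0.0066 over all genes. The number changed when a sample was left out, as did that over all genes. Without WT replicate 3, 11 list genes were called, and 5657 of all 20137 genes tested. Without WT replicate 5, 11 list genes were called, and 6036 of all 20183 genes tested. With the neighbours' median within 5 Mb taken off, 10 list genes were called, where 6281 of all 19599 genes tested were. Of the 17 list genes called before, only TERF2IP, CTC1 and ZNF827 were among the 10.

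Of 11 genes for telomerase assembly and RNA maturation, 2 were lower and 2 higher. NAF1, which loads DKC1 onto H/ACA RNAs, fell from 18.0 ± 1.48 to 9.84 ± 0.766 CPM (SD, n = 3), a log2 fold change of -0.87 (adjusted p = 0.000155, edgeR's quasi-likelihood test). Its 21 tested neighbours within 5 Mb had a median of -1.04, and with that taken off NAF1 was at 0.17 (adjusted p = 0.219, edgeR's quasi-likelihood test). PINX1, an inhibitor of telomerase that overlaps SOX7 on the same strand, rose by 0.48, WRAP53, which carries TERC to Cajal bodies, rose by 0.29, and RUVBL1, an ATPase of particle assembly, fell by 0.37 on the log2 scale. PINX1 lost its call without WT replicate 3 or ARID1A-KO replicate 3, WRAP53 without WT replicate 3 or 5 or ARID1A-KO replicate 4, and RUVBL1 without WT replicate 5.

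Of the 8 tested genes for the CST complex and telomere end processing, 4 were higher and none lower in edgeR's test, where 17.8% of all genes were higher. At an unadjusted p under 0.05, none of the 8 was lower either, nor was any called lower by DESeq2. STN1 (log2 fold change 0.45) and CTC1 (0.43), a pair of CST subunits that limit telomerase and fill in the C-rich strand, rose together. TNKS2 (0.33), a tankyrase that releases TERF1 from telomeres, and TZAP (0.27), a trimming factor, were also higher, and TZAP lost its call without any 1 of WT replicates 3 and 5 and ARID1A-KO replicates 3 and 4. With the neighbours' median within 5 Mb taken off, CTC1 alone of the 4 was still called (0.29, adjusted p = 0.0133, edgeR's quasi-likelihood test). In that fit TNKS and SAMHD1, each at -0.29 against the median of its neighbours, were called as lower. TEN1, with 2 to 17 counts, had too few to be tested, and it overlaps TEN1-CDK3 on the same strand. RTEL1, with 23 to 46 counts, overlaps RTEL1-TNFRSF6B in the same way. It was not called (log2 fold change -0.089, adjusted p = 0.822, edgeR's quasi-likelihood test). How reads were split between these overlapping genes was not examined.

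Of 11 genes for H3.3, its chaperones and PML bodies, 8 did not pass the test. ASF1B, a histone chaperone of replicating cells, fell by 0.43 on the log2 scale, and its neighbours within 5 Mb had a median of -0.35. With that taken off, ASF1B was at -0.078 and was not called (adjusted p = 0.44, edgeR's quasi-likelihood test). HIRA, which places H3.3 outside telomeres, was at 0.22 with an adjusted p of 0.0463 (edgeR's quasi-likelihood test), and its call was lost in 5 of the 6 fits without 1 sample. The H3.3 genes H3F3A (0.078) and H3F3B (0.091) and PML (-0.27, adjusted p = 0.0727, edgeR's quasi-likelihood test) did not pass the test.

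Of 16 genes for ALT recombination, 2 were lower and 2 higher. MND1, which with PSMC3IP helps strand exchange, went from 15.02 ± 0.677 to 6.79 ± 0.201 CPM (SD, n = 3), a log2 fold change of -1.14 (adjusted p = 1.99e-05, edgeR's quasi-likelihood test), and its 31 tested neighbours within 5 Mb had a median of -0.95. PSMC3IP itself was at 0.17 and was not called. RAD52, which anneals single strands, fell by 0.49, the nuclease EXD2 rose by 0.37 and TOP3A, the topoisomerase partner of BLM, rose by 0.24 on the log2 scale. With the 5 Mb median taken off, MND1 was at -0.19, RAD52 at -0.21, EXD2 at 0.048 and TOP3A at 0.21, and none of the 4 was called (adjusted p = 0.116, 0.0552, 0.703 and 0.0729, edgeR's quasi-likelihood test). TOP3A lost its call without any 1 of WT replicates 3 and 5 and ARID1A-KO replicates 3 and 4. BLM was at 0.077 and was not called.

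Of 6 genes for nuclear receptor recruitment at ALT telomeres, ZNF827 was called. This zinc finger protein brings the NuRD complex to ALT telomeres. It had 52.7, 55.0 and 54.3 CPM in WT and 76.2, 77.8 and 86.2 CPM in ARID1A-KO replicates 3, 4 and 5, without overlap. ZNF827 rose by 0.57 on the log2 scale (SE 0.07, adjusted p = 0.000197, edgeR's quasi-likelihood test). Its 33 neighbours within 5 Mb had a median of -0.25 and the 10 within 1 Mb one of 0.20. With these medians taken off, ZNF827 was at 0.82 and 0.37 (adjusted p = 3.77e-05 and 0.0027, edgeR's quasi-likelihood test). The receptors NR2F1 (0.33), NR2F2 (0.074), NR2C1 (-0.12) and NR2C2 (0.13) did not pass the test.

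**Figure D5:**
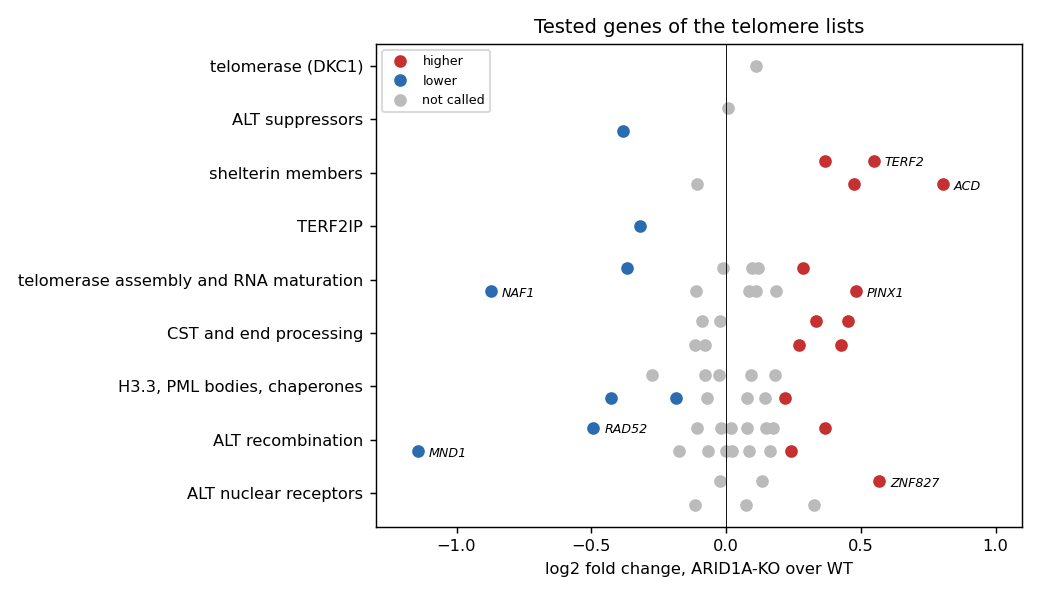
Log2 fold change of ARID1A-KO over WT for each tested gene of the member groups and the telomere lists, red where higher, blue where lower and grey where not called; the genes farthest from 0 are named. The shelterin members lie mostly to the right of 0, from -0.11 to 0.80, and MND1 and NAF1 lie farthest to the left.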

How the data were processed

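Per the labels, untreated AID-DIvA cells were sequenced in pairs of 100 bp. Alignment to the hg19/GRCh37 genome was done by the authors with STAR, run in Roddy. The deposited counts per gene came from featureCounts, as whole numbers by strand, without normalization. The authors also deposited TPM, treated here as a score because they were scaled to the autosomal genes, and FPKM, used only as an alternative for levels.

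From these, reverse-stranded counts were taken. Low genes were removed by filterByExpr, TMM factors applied, and the genotypes compared with edgeR 4.0.16 under R 4.3.3 on all 6 samples without a covariate, with Benjamini-Hochberg adjustment over the 19599 genes tested. The study's own tool, DESeq2 (1.42.0 here), was an alternative. The members and lists were chosen with earlier results of these data known. All 10 members were named, and up to 4 called genes per list by size of change, with further genes named as not called. A called list gene is counted but not reported here. The fit was tested on simulated data for these 19599 genes. It recovered 172 of 200 changed genes and made 18 false calls. The lowest tested member had 842 counts in a sample, so counting error is small beside the replicate spread. Pairs of samples differed by more than sampling noise (chi-square per gene of 7.20 to 132). Promoters are from RefSeq and the TERC template from the GRCh37 genome.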

Additional observations from a re-analysis of the deposited data

How the results depend on the processing

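The 5 calls among the members (ATRX, TERF2, POT1, TINF2 and ACD) were made under unstranded counts, RLE normalization, the DESeq2 Wald test, either count filter, an adjusted p under 0.01 and without each sample in turn (5 called each time). With the neighbours' median within 5 Mb taken off, 3 genes were called, where 6281 of all 19599 genes tested were. With that within 1 Mb, a window chosen after seeing the data, 3 were called, where 6573 of all genes were. TERF2 then turned to -0.0023 and -0.032, TINF2 lost its call at 0.18 and 0.075, and TERF1, which was not called, turned to 0.021 and 0.0095. DAXX, near 0, turned to -0.037 and -0.073 with these medians, to -0.023 without WT replicate 3 and to -0.014 without ARID1A-KO replicate 3, within a range of -0.023 to 0.037 without each sample. For POT1, the 1 Mb window held 2 genes with a median of -0.79, and with that taken off POT1 was at 1.16. Among list genes, the 5 Mb median turned NAF1 to 0.17 and RUVBL1 to 0.057, and the 1 Mb median turned NAF1 to 0.17, MND1 to 0.074, RAD52 to 0.043 and STN1 to -0.021.

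In the telomere lists, 10 genes were called at an adjusted p under 0.01, 10 with the 5 Mb median, and 11 to 19 without each sample. Of all genes, 4414 were called at an adjusted p under 0.01, 6281 with the 5 Mb median, and 5285 to 7050 without each sample. ARID1A stayed between -2.86 and -2.72. With the replicate number as a block, 5 members, 17 list genes and 7477 of all genes were called, and ARID1A was at -2.74. Deviations of same-numbered samples correlated at -0.177, 0.268 and 0.18, and not every sample correlated best with its own number. With 3 samples per genotype, these values cannot decide whether the numbers pair the samples. Under the block HIRA lost its call and PML gained one. Depth limits TERT, and why TERC was at 0 was not tested.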

Other observations

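The genes whose pattern over the 6 samples was most like that of ACD, by the root mean square difference of centred log2 CPM among 19598 genes, lay on other chromosomes. They were TSPAN33 on chromosome 7 (0.0348), RP11-76C10.5 on chromosome 12 (0.0385) and RP11-422J8.1 on chromosome 1 (0.0404), with log2 fold changes of 0.81, 0.76 and 0.78. Since they were picked for this likeness, fold changes close to that of ACD follow from the choice. Whether they are regulated together with ACD was not tested.

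The ratio of ACD to TINF2 TPM, a pair of shelterin subunits that bind each other, was 1.21, 1.11 and 1.18 in WT and 1.59, 1.40 and 1.42 in ARID1A-KO replicates 3, 4 and 5. That of ACD to POT1 was 3.98, 3.57 and 4.49 in WT and 5.29, 5.43 and 5.48 in ARID1A-KO samples. For both ratios the genotypes did not overlap.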
